A study of Mus musculus with 6 samples.

Results

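Accessible regions were followed across the 1 Mb of mouse chromosome 18 that holds the glucocorticoid receptor gene Nr3c1, from 39000001 to 40000000 in the build mm9. Members were chosen by position: every region of a deposited peak list that overlapped this window was taken. The window held 18 of 25922 regions after 6 h of BRM014, 33 of 38422 regions after 30 h of BRM014 and 47 of 42310 regions in DMSO. The window itself was picked from 1 Mb windows because many of its DMSO regions were missing at 30 h, so the counts of missing regions at either time are given as a description, with no test. Nr3c1 was placed near position 39600000 when the window was chosen, and distances are given from that mark to the centre of a region. The mark was not checked against a gene annotation, since the gene table used here is on the build GRCm38 and no mm9 annotation was used.

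The data are ATAC-seq peak lists. In ATAC-seq the transposase Tn5 places sequencing adapters into open DNA, so that pileups of fragments mark accessible chromatin. The cells were NMuMG, an established epithelial line from normal mouse mammary gland, labelled wild type and grown with serum and insulin. The groups were BRM014 for 6 h, BRM014 for 30 h and the vehicle DMSO, with 2 biological replicates each, and BRM014 inhibits the ATPases of the SWI/SNF chromatin remodelling complexes. The list name gives 30 h for DMSO, so no vehicle list stood beside the 6 h treatment. Each list was made by the authors from both replicates of its group, which leaves 1 list per group, no spread between replicates and no test between treatments. The lists hold positions and no gene names, so the cell type was not checked against marker genes. The labels' extraction text also mentions TGFβ, which no sample label carries.

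Nr3c1 encodes the glucocorticoid receptor, a nuclear receptor that is held by chaperones in the cytoplasm, moves to the nucleus when it binds hormone and then binds DNA at glucocorticoid response elements. There it recruits coactivators and chromatin remodellers, SWI/SNF complexes among them. In mammary epithelium, glucocorticoids take part in differentiation and in the expression of milk protein genes. Among protein-coding genes in the order of GRCm38, Fgf1, which encodes a fibroblast growth factor, lies on the side of Nr3c1 with lower coordinates. On the other side follow Pabpc2, a gene of the poly(A)-binding protein family, and Yipf5, which encodes a membrane protein of the Golgi. Which of these lie inside the window on mm9 was not determined. No receptor level, hormone response or RNA was measured in these samples. Sequence of the regions is not shown.

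Strength is given on 2 scales. The authors' -log10 q and fold enrichment describe a region within its own list. The summit pileup, the number of fragments stacked at the summit, was solved from the fold enrichment and -log10 p that the authors deposited, and divided by the lowest background of its list, which was 2.12 at 6 h, 2.72 at 30 h and 3.37 in DMSO. This depth-scaled pileup is in multiples of that background and rests on the assumption that the lowest background is the genome average of the list. By the same measure the depth was 63.0% of DMSO at 6 h and 80.7% of DMSO at 30 h. A region missing from a list was not called there, which does not show that it was closed.

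After BRM014, 32 of the window's 47 DMSO regions were missing at 6 h, 68.1% with a 95% Wilson interval of 53.8 to 79.6%, where 43.6% of all DMSO regions were missing. At 30 h, 23 of the 47 were missing, 48.9% (35.3 to 62.8%), where 26.1% of all DMSO regions were missing. Intervals cover counting error only, treat neighbouring regions as independent and take no account of how the window was picked. Every one of the 23 had been absent from the 6 h list as well. The window therefore held 23 regions missing at both times, against 23.7% of all DMSO regions, 9 missing at 6 h only, a share of 19.1% (10.4 to 32.5%) against 19.9% of all, and 15 called at both times, 31.9% (20.4 to 46.2%) against 54.1% of all. None of the 47 was missing at 30 h only, which allows a share of up to 6.38%, and 2.33% of all DMSO regions were in that class. Among 2309 windows of 1 Mb that hold a DMSO region, 1 window had more regions missing at 30 h and 1 had more missing at 6 h. By share, 21 of the 915 windows with at least 20 DMSO regions stood higher at 30 h and 17 stood higher at 6 h. The window was picked for its regions missing at 30 h, so a high rank at 30 h follows from that choice. The rank at 6 h is tied to it, as all 23 were missing then too.

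**Figure D1:**
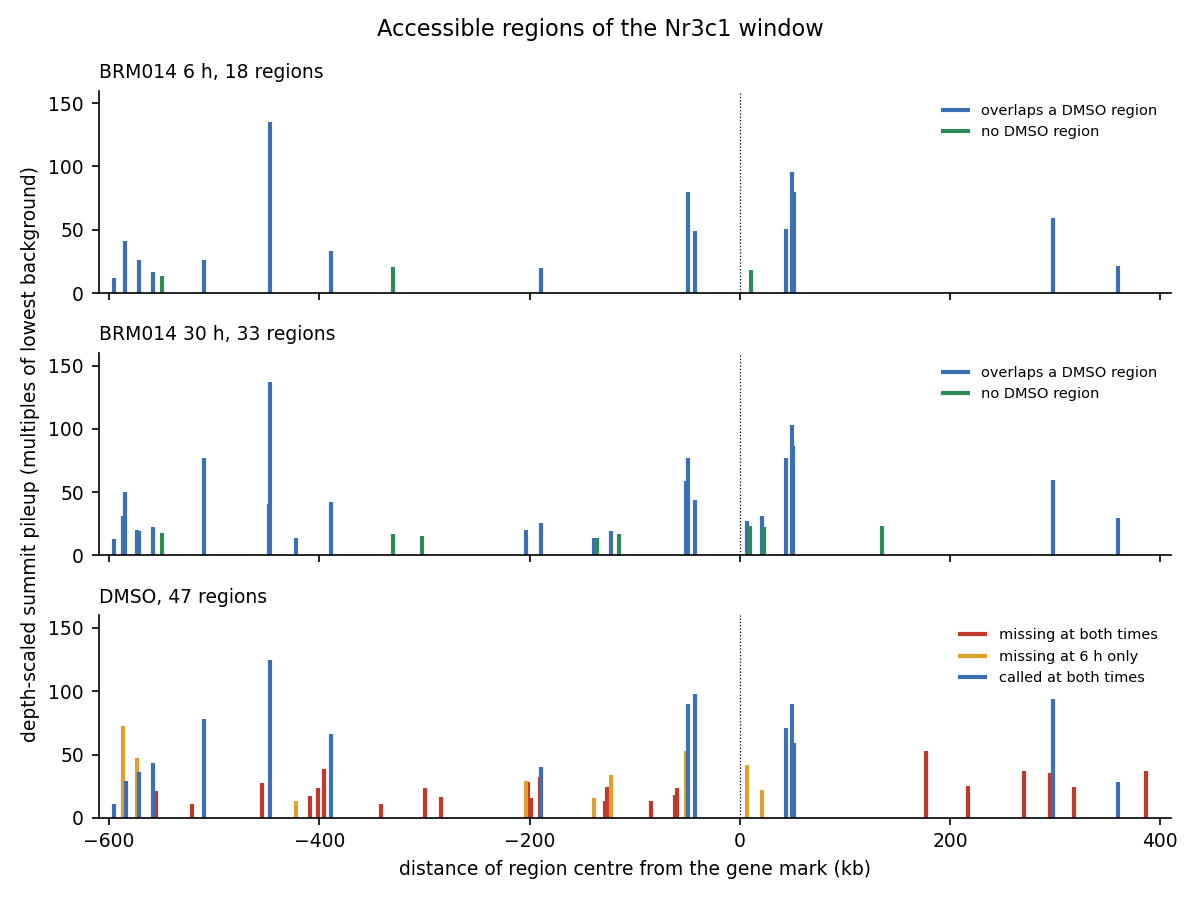
Depth-scaled summit pileup (vertical axis, multiples of the lowest background of each list) of every region in the window against the distance of its centre from the gene mark (horizontal axis, kb), for BRM014 at 6 h, BRM014 at 30 h and DMSO; each line is 1 region. The 18 regions at 6 h and 33 at 30 h are thinned out against 47 in DMSO. Within 100 kb of the mark, the 5 DMSO regions called in all 3 lists have 59.1 to 97.5 in DMSO. The 3 missing at 6 h only have 21.7 to 52.6, and the 3 missing at both times 13.7 to 23.8.

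Losses were spread over the window, with a smaller share within 100 kb of the mark than beyond. Within 100 kb of the mark, 3 of 11 DMSO regions were missing at 30 h, 27.3% (9.75 to 56.6%), near the 26.1% of all DMSO regions. Farther out 20 of 36 were missing, 55.6% (39.58 to 70.5%). At 6 h, 6 of 11 were missing within 100 kb, 54.5% (28.0 to 78.7%), and 26 of 36 farther out, 72.2% (56.0 to 84.2%). Over all DMSO regions 43.6% were missing at 6 h. The intervals of near and far regions overlap at 30 h, and the near share moved with the choice of the mark and of the limit: with a limit of 50 kb, 0 of 6 were missing at 30 h, and with a limit of 200 kb, 8 of 19, 42.1%, against 53.6% beyond. The depth-scaled DMSO pileups of the near regions had a median of 52.6, from 13.7 to 97.5, and those of the far regions a median of 28.5, from 10.7 to 124, so that their ranges overlap. The part of strength in the near and far shares was not tested. The densest stretch, more than 500 kb below the mark, held 9 DMSO regions, of which 4 were missing at 6 h and 2 at 30 h. From 300 to 200 kb below the mark, all 4 DMSO regions were missing at 6 h and 3 at 30 h.

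**Figure D2:**
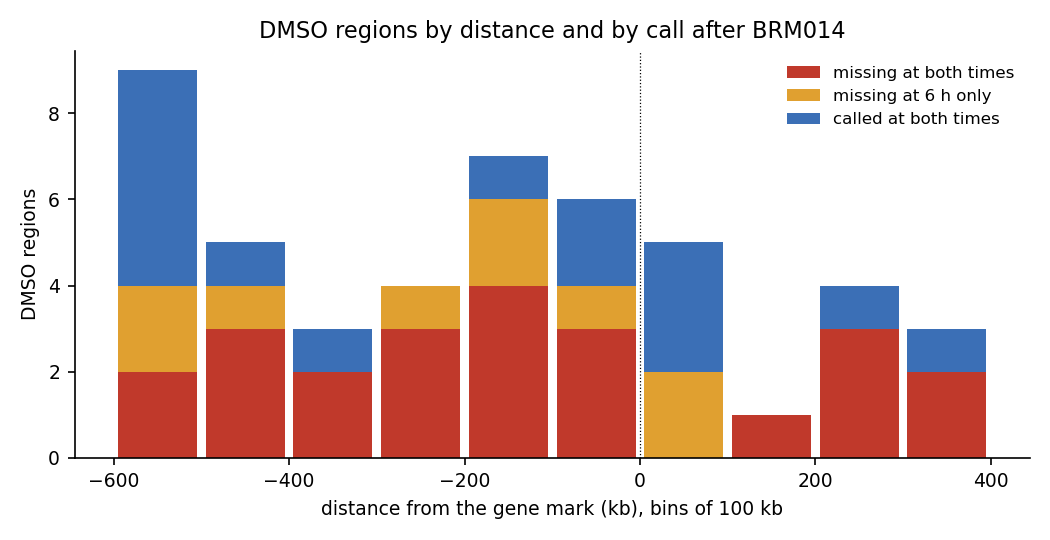
Number of DMSO regions (vertical axis) in bins of 100 kb by distance from the gene mark (horizontal axis, kb), coloured by whether they were missing at both times, missing at 6 h only or called at both times after BRM014. In the bin from the mark to 100 kb above it, none of the 5 regions was missing at both times, while the next bin's single region was.

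The 2 regions nearest the mark, 6.5 and 20.6 kb above it, were not called at 6 h and were called at 30 h. The first, from 39606324 to 39606756, had a depth-scaled pileup of 27.6 at 30 h and 41.6 in DMSO. The second, from 39620488 to 39620805, had 31.3 at 30 h and 21.7 in DMSO, 1.44 times the DMSO level. So these neighbours, both single-summit regions, stood on opposite sides of their DMSO levels when they were called again.

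A group of 3 regions between 43.5 and 51.2 kb above the mark was called in every list. The region from 39643227 to 39643805 had a depth-scaled pileup of 50.5 at 6 h, 77.3 at 30 h and 71.3 in DMSO. The region from 39650915 to 39651402 had 79.7 at 6 h, 86.1 at 30 h and 59.1 in DMSO, which put it above DMSO at both times, by 1.35 and 1.46 times. Between them lay the widest region of the window, from 39648831 to 39650529, with 95.3 at 6 h, 103 at 30 h and 90.03 in DMSO. Its width was 1560 bp at 6 h, 1656 bp at 30 h and 1699 bp in DMSO. Whether any of them lies at a transcription start of Nr3c1 was not determined.

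This widest region was examined further because it has the most summits in the window, a choice made after its values were seen. It held 6 summits in each of the 3 lists. The third was the highest, at 39649656 for 6 h, 39649653 for 30 h and 39649649 for DMSO, with fold enrichments of 11.0, 9.71 and 10.3. At the first summit the depth-scaled pileup was 18.9 at 6 h, 33.9 at 30 h and 25.3 in DMSO. At the second it was 20.8 at 6 h, 34.2 at 30 h and 36.5 in DMSO. The outline of 1 high and 5 low summits was present in all 3 lists. The fourth summit had 21.2 at 6 h, 22.1 at 30 h and 18.7 in DMSO. The fifth had 23.1 at 6 h, 32.4 at 30 h and 26.1 in DMSO. The last had 13.7 at 6 h, 20.2 at 30 h and 20.5 in DMSO. Of the 5 low summits, 4 were thus lowest at 6 h by depth-scaled pileup, and the fourth was lowest in DMSO. Over local background the low summits were weak, with fold enrichments of 1.64 to 2.74 at 6 h, 1.95 to 3.26 at 30 h and 2.16 to 4.16 in DMSO. By fold enrichment the fourth was lowest at 30 h. At 6 h the first had a -log10 q of 3.82 and the last 0.617.

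On the lower side of the mark, 2 strong regions lay close together. The region from 39550504 to 39551038 had a depth-scaled pileup of 80.2 at 6 h, 77.3 at 30 h and 90.03 in DMSO. That from 39556512 to 39557535, the strongest within 100 kb by DMSO -log10 q, had 49.1 at 6 h, 44.2 at 30 h and 97.5 in DMSO. It was therefore at 0.503 and 0.453 times its DMSO level, while its neighbour stood at 0.891 and 0.859 times. The region from 39549019 to 39549461 was not called at 6 h and had 58.9 at 30 h and 52.6 in DMSO.

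The 3 regions within 100 kb that were weakest by DMSO -log10 q were all missing at both times. They were the region from 39537860 to 39538324, that from 39539882 to 39541227 with 3 summits over 1346 bp, and that from 39514713 to 39515430. Their depth-scaled pileups in DMSO were 18.4, 23.8 and 13.7. By -log10 q, at 27.4, 44.3 and 29.7, these 3 were the weakest of the 11 near regions. By depth-scaled DMSO pileup the region from 39620488 to 39620805, at 21.7, stood below the second of them and was called at 30 h.

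More than 100 kb above the mark, 6 of the 8 DMSO regions were missing, and the same 6 at both times. The strongest region missing at both times in the whole window was among them, 177.3 kb above the mark from 39776938 to 39777663, with a fold enrichment of 19.2, a -log10 q of 162 and a depth-scaled pileup of 52.6 in DMSO. Its summit held 177 fragments in DMSO, which corresponds to 111 at the depth of the 6 h list and 143 at that of the 30 h list. These values exceed the summit pileups of 62.1% of all 6 h regions and 65.7% of all 30 h regions. Of all DMSO regions at least as high, 11.2% were missing at 6 h and 3.89% at 30 h.

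Beyond it, the regions 216.6, 270.4, 294.7, 318 and 386.7 kb above the mark were also missing at both times. Their depth-scaled pileups in DMSO were 24.96, 36.8, 35.1, 24.4 and 37.1. The kept regions on this side lay among them. The one from 39897331 to 39897968 had 59.4 at 6 h, 59.6 at 30 h and 93.6 in DMSO, and it lay 2426 bp from a missing region. The other, from 39959820 to 39960367, had 21.7 at 6 h, 29.8 at 30 h and 28.2 in DMSO. So a region with a lower depth-scaled DMSO pileup than 4 of the 6 missing ones was kept. By DMSO -log10 q, at 97.5, it stood below those 177.3, 270.4 and 386.7 kb above the mark and above the others. By fold enrichment in DMSO, at 21.7, it stood below only the one at 270.4 kb, with 21.8.

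With these losses the longest stretch of the window without a called region ran for 246 kb at 6 h, from 39651394 to 39897334, for 162 kb at 30 h, from 39735505 to 39897323, and for 126 kb in DMSO, from 39651403 to 39776937. All 3 stretches lie above the mark. Regions covered 11792 bp of the window at 6 h, 19087 bp at 30 h and 31412 bp in DMSO, with median widths of 583.5, 566 and 625 bp, and covered length depends on the depth of a list.

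More than 100 kb below the mark lay 28 DMSO regions, of which 14 were missing at both times, 6 at 6 h only, and 8 were called at both times. The strongest region of the window, from 39151962 to 39153378, was called in every list with a -log10 q of 271 at 6 h, 344 at 30 h and 382 in DMSO. Its depth-scaled pileup was 135 at 6 h, 137 at 30 h and 124 in DMSO. In the 30 h list it was covered by 2 separate regions. The next by -log10 q on this side, from 39089488 to 39090408, had a depth-scaled pileup of 26.4 at 6 h, 76.9 at 30 h and 78.1 in DMSO. It was at 0.338 times its DMSO level at 6 h, the lowest ratio of any kept region in the window, and at 0.984 times at 30 h.

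A cluster at the lower end of the window held regions with unlike behaviour within a few kb. The region from 39012515 to 39012974 was not called at 6 h and had a depth-scaled pileup of 30.9 at 30 h and 72.2 in DMSO. It was the strongest of the window's regions missing at 6 h only, and its DMSO summit corresponds to 153 fragments at the depth of the 6 h list, above the pileups of 74.8% of all 6 h regions. The region from 39015277 to 39015920, 2302 bp away, had 41.5 at 6 h, 50.4 at 30 h and 28.8 in DMSO, at 1.44 and 1.75 times its DMSO level. These were the highest ratios among the window's kept regions at 6 h and at 30 h. The region from 39025840 to 39026998 was not called at 6 h and had 20.2 at 30 h and 46.9 in DMSO. Of those missing at 6 h only, the next by -log10 q on this side lay outside the cluster, 122.2 kb below the mark from 39477630 to 39477989. It had a -log10 q of 67.2 in DMSO and a depth-scaled pileup of 19.5 at 30 h and 33.9 in DMSO, 0.576 times the DMSO level.

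Other pairs of neighbours on this side also parted. The region from 39409825 to 39410199 was missing at both times and had a depth-scaled pileup of 32.1 in DMSO. Only 172 bp farther, that from 39410372 to 39411137 was called throughout, with 19.8 at 6 h, 25.8 at 30 h and 40.4 in DMSO. The first shared no base with a treated region, so every rule that asks for overlap leaves it missing. The treated regions at its neighbour began 156 bp from its end at 6 h and 98 bp from it at 30 h. Only with regions within 500 bp counted as shared was it missing at neither time. The region from 39203962 to 39204674, with 2 summits and 38.9 in DMSO, was missing at both times, while that from 39210680 to 39211440 had 33.5 at 6 h, 42.3 at 30 h and 66.0 in DMSO. Runs of neighbouring missing regions were longest at 6 h, with 8 in a row over 88.3 kb, from 39461121 to 39549461, and 7 in a row over 152 kb, from 39258297 to 39410199. At 30 h the longest run had 4 regions over 118 kb, from 39776938 to 39894904. The run of 7 ends with the region from 39409825 to 39410199, which is not missing when regions within 500 bp count as shared. Run length depends on how many regions were missing, 32 of 47 at 6 h and 23 at 30 h. Runs over all DMSO regions are not given.

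Weak regions were missing most often, in the window as in the whole list. In DMSO, regions of the window missing at both times had a median -log10 q of 48.9, those missing at 6 h only 67.2 and those called at both times 191. Over all DMSO regions these medians were 40.7, 59.4 and 169. The 8 members in the strongest quartile of all DMSO regions by -log10 q were kept at 30 h, and 1 of them, the region from 39012515 to 39012974, was missing at 6 h. A count of 0 among 8 allows a share of up to 37.5%, and 1.71% of all DMSO regions of that quartile were missing at 30 h.

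**Figure D3:**
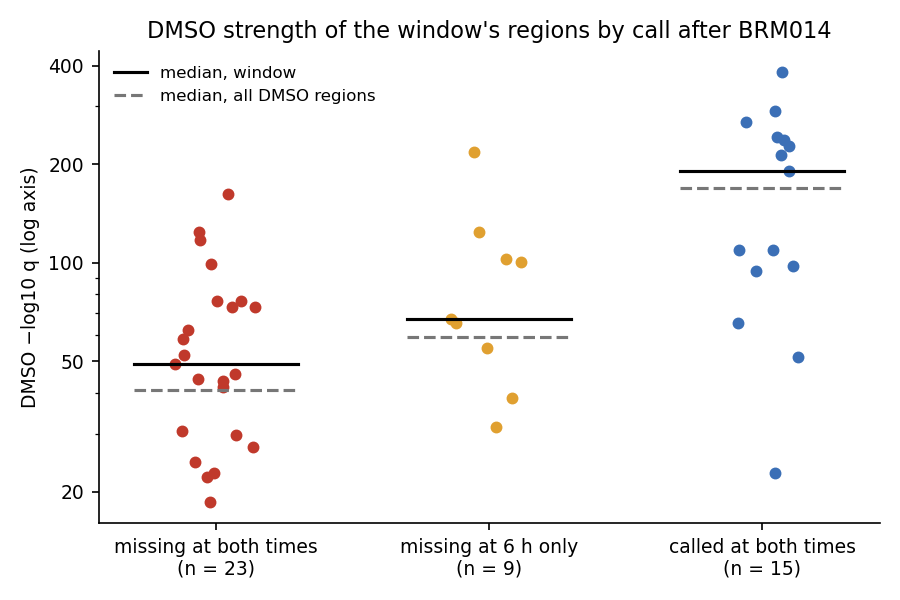
DMSO -log10 q (vertical axis, log scale) of the 47 DMSO regions of the window, 1 point each, by call after BRM014; solid lines are medians in the window and dashed lines medians over all DMSO regions of the class. The medians in the window are 48.9, 67.2 and 191, and the classes overlap.

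In the third quartile 7 of 12 members were missing at 6 h, 58.3%, against 28.2% of all DMSO regions of that quartile. At 30 h, 4 of these 12 were missing, 33.3%, against 11.8% of all. In the second quartile 11 of 13 were missing at 6 h, 84.6%, against 57.8% of all, and 8 at 30 h, 61.5%, against 32.3%. In the weakest quartile 13 of 14 were missing at 6 h, 92.9%, against 83.0% of all, and 11 at 30 h, 78.6%, against 58.4%. By -log10 q, the members were thus missing more often than all DMSO regions in each quartile at 6 h and in the lower 3 quartiles at 30 h. In the strongest quartile at 6 h this rests on 1 of 8. By depth-scaled pileup it held in the lower 3 quartiles at both times. None of the 6 members in the strongest quartile by pileup was missing, where 6.39% of all were at 6 h and 1.85% at 30 h. A count of 0 among 6 allows a share of up to 50%. Since the window was picked for missing regions, this describes the window and supports nothing.

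**Figure D4:**
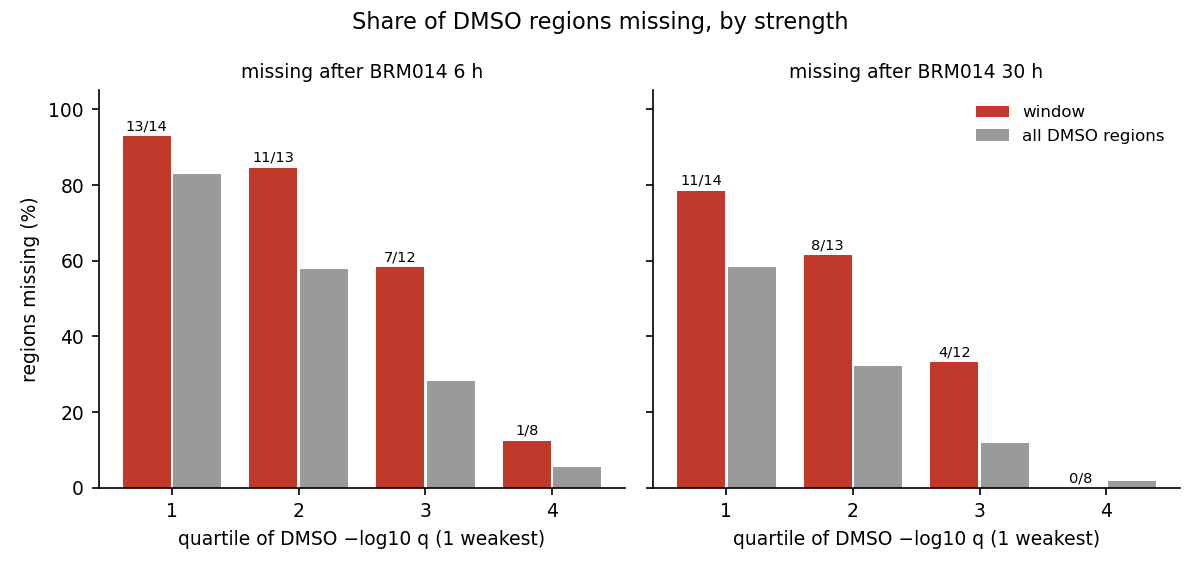
Share of DMSO regions missing (vertical axis, %) at 6 h and at 30 h of BRM014 by quartile of DMSO -log10 q (horizontal axis, quartile 1 is weakest), in the window and over all DMSO regions; numbers above the window's bars are missing over all members. Window shares run from 92.9 to 12.5% at 6 h and from 78.6 to 0% at 30 h.

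Depth sets a limit to these calls. At the depth of the treated list, the summits of the 32 regions missing at 6 h correspond to a median of 51.3 fragments, from 22.7 to 153, and those of the 23 missing at 30 h to a median of 64.6, from 29.1 to 143. For 17 of the 32 and 15 of the 23, at least 25% of the regions that were called in the treated list had lower summit pileups. For 5 and 4 of them, at least 50% had. The weakest members are near the limit of calling: 0.355% of 6 h regions and 1.54% of 30 h regions lay below the pileup that the region from 39258297 to 39259023 would have had.

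Kept regions stood on both sides of their DMSO levels. At 6 h, 10 of the 15 kept regions had a lower depth-scaled pileup than in DMSO, 66.7% (41.7 to 84.8%), and over all kept regions 64.9% did. The median ratio of the 6 h to the DMSO level was 0.729 in the window and 0.855 over all kept regions. At 30 h, 14 of 24 were lower, 58.3% (38.8 to 75.5%), against 52.1% of all kept regions, with median ratios of 0.854 and 0.985. These ratios leave out missing regions, which have no pileup in the treated list.

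Of the 15 regions called at both times, 8 were lower than DMSO at both times, where 42.6% of all such regions were, and 5 were higher at both times, where 28.0% of all were. The other 2 were lower at 6 h and higher at 30 h. In 12 of the 15 the 30 h level was above the 6 h level, and so it was in 70.3% of all regions called at both times. Among the 9 regions missing at 6 h only, the 30 h level was from 0.428 to 1.44 times the DMSO level, lower in 6 and higher in 3. The same split over all DMSO regions of that class is not given, so these counts describe the 9 regions only.

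**Figure D5:**
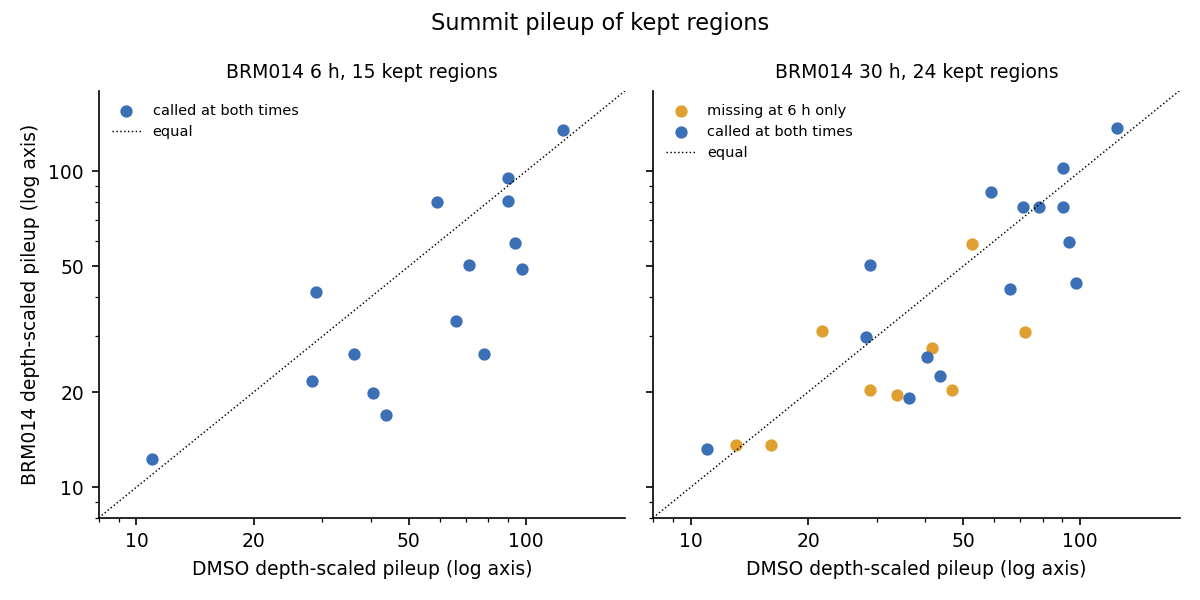
Depth-scaled summit pileup after BRM014 (vertical axis, log scale) against DMSO (horizontal axis, log scale) for the 15 window regions kept at 6 h and the 24 kept at 30 h; the dotted line marks equal values and colours give the call over both times. At 6 h 10 points lie below the line and at 30 h 14.

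Kept regions of the window were mostly narrower after BRM014 than in DMSO, and so were most kept regions of the whole lists. At 6 h, 13 of the 15 kept regions of the window were narrower, 86.7% (95% Wilson interval 62.1 to 96.3%), where 75.2% of all kept regions were, with a median width of 636 bp at 6 h against 761 bp in DMSO. At 30 h, 19 of 24 were narrower, 79.2% (59.5 to 90.8%), where 66.7% of all kept regions were, with 602 bp at 30 h against 641 bp in DMSO. The width of a called region depends on the depth of its list, and its part in this was not tested. The main summit lay within 50 bp of the DMSO summit in 13 of 15 regions at 6 h, 86.7%, where it did in 88.7% of all kept regions, and in 22 of 24 at 30 h, 91.7%, where it did in 91.3% of all, so the shares in the window are near those of the lists. The largest distance, 288 bp at 6 h and 452 bp at 30 h, was at the weak region with 4 summits from 39003704 to 39004597.

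BRM014 lists also held regions with no DMSO region. At 6 h there were 3 of 18, 16.7% (5.84 to 39.2%), where 7.42% of all 6 h regions were new. At 30 h there were 8 of 33, 24.2% (12.8 to 41.0%), where 17.9% of all 30 h regions were new. All 3 new regions of the 6 h list were called at 30 h too, as were 60.0% of all new 6 h regions, and they make 3 of the 8 new regions of the later list, where 16.8% of all new 30 h regions had a 6 h region.

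By depth-scaled pileup, the new regions of the window were lower than the kept regions within 100 kb of the mark. The 3 new regions at 6 h had 13.2 to 20.8, against 49.1 to 95.3 in the 5 near kept ones. The 8 at 30 h had 13.6 to 23.2, against 27.6 to 103 in the 8 near kept ones. Kept regions farther out overlapped the new ones, going as low as 12.3 at 6 h and 13.3 at 30 h. In near kept regions -log10 q at 30 h was 55.7 to 217, which overlapped the 23.0 to 59.8 of the new regions. The strongest by -log10 q was a 30 h region with 3 summits, from 39734740 to 39735504 and 135.1 kb above the mark, with a fold enrichment of 17.2, a -log10 q of 59.8 and a depth-scaled pileup of 23.2. It lay 41433 bp from the nearest DMSO region, inside the longest stretch without one. At 10.1 kb above the mark a region was called at 6 h, from 39609807 to 39610364, with a depth-scaled pileup of 17.9. A 30 h region at the same place, from 39609766 to 39610256, had 23.2. Another new 30 h region lay 23.2 kb above the mark, from 39622996 to 39623492, with 22.8. With the pair of regions that were called again at 30 h, the 25 kb above the mark held 1 called region at 6 h, 4 at 30 h and 2 in DMSO.

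The other new regions lay below the mark. One at 549.9 kb, from 39049969 to 39050199 in the 6 h list and from 39049738 to 39050410 in the 30 h list, had depth-scaled pileups of 13.2 at 6 h and 18.04 at 30 h. One at 329.6 kb, from 39270246 to 39270566 at 6 h and from 39270182 to 39270549 at 30 h, had 20.8 at 6 h and 16.6 at 30 h. The remaining 3 were called at 30 h only, at 302.8, 136.1 and 114.9 kb below the mark, with 15.5, 13.6 and 16.9.

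The neighbouring stretches of chromosome 18 held fewer DMSO regions and fewer that were missing. In the 1 Mb below the window, 16 of 40 DMSO regions were missing at 6 h and 13 at 30 h, 32.5% (20.1 to 48.0%), and in the 1 Mb above it 2 of 5 and 1 of 5. Over chromosome 18, 47.5% of 1242 DMSO regions were missing at 6 h and 28.3% at 30 h. At the lower edge, the first DMSO region inside the window and the last one outside it were called at both times, with depth-scaled DMSO pileups of 11.0 and 45.8. At the upper edge, the last one inside was missing at both times, with 37.1, and the first one outside was missing at 6 h only, with 17.8.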

How the data were processed

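Both replicates of a group went into 1 peak list, per the labels, which the authors called with MACS2 2.1.2 on mm9, per the submitters' processing notes. Aligner, read filters, Tn5 shift and caller options are not given in the sources used here. The authors deposited per entry a score from 540 to 1000, a fold enrichment (a ratio over local background), a -log10 p, a -log10 q and a summit offset. Overlapping entries of a list were merged, keeping the highest values. Regions sharing at least 1 bp counted as called in both lists. Pileup and background were solved from fold enrichment, taken as pileup plus 1 over background plus 1, and from the Poisson -log10 p, which was matched within 0.001 for 100% of entries. The lowest background was shared by 2052 entries at 6 h, 5970 at 30 h and 7641 in DMSO. These steps were tested on simulated data. Wilson intervals, and limits from a count of 0 (3 counts of the total), cover counting error only. With 1 list per group no test was made.

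The window, its regions and the quantities were chosen with earlier results of these data known. Regions named are the 10 nearest the mark, the 10 with the highest DMSO -log10 q, the 5 highest by -log10 q of each class of missing regions, the new regions and those at the edges; others were named after their values were seen. Alternatives concerned the overlap rule, threshold, merging, list length, window edges, mark, distance limit and depth scale. A planned list of glucocorticoid pathway genes needed gene positions on mm9 and was not used. Python 3.11.15, numpy 2.4.6, scipy 1.17.1, pandas 2.3.3 and matplotlib 3.10.9 were used.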

Additional observations from a re-analysis of the deposited data

How the results depend on the processing

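Of 56 values recomputed under the alternatives, 51 stayed within the 95% interval of the reported value and 5 did not. Part of these values could not move or repeat each other. No region of the window had a -log10 q below 17.6, so a threshold of 5 removed none. The share missing at both times equalled that missing at 30 h, except with at least 50% of the region covered. With only entries at a score of 1000 followed, the share of new regions was 0% at 6 h (0 of 9) and 5.88% at 30 h (1 of 17). With lists of equal length, the strongest 25922 regions of each, 52.0% of the window's DMSO regions were missing at 6 h (13 of 25); this setting removes the weaker regions of the longer lists. Within reach of the mark, the share missing at 30 h was 0% both with the mark 50 kb higher (0 of 7) and with a limit of 50 kb (0 of 6), against 57.5 and 56.1% farther out. It was 35.7% (5 of 14) with the mark 50 kb lower and 42.1% (8 of 19) with a limit of 200 kb, against 54.5 and 53.6% farther out, so it rests on few regions. At the score setting the 3 new 6 h regions, with scores of 578, 949 and 713, were left out. Of the 8 new 30 h regions only that from 39734740 to 39735504 had a score of 1000. Under the other settings the share missing at 30 h ran within its interval. At a score of 1000 it was 35.5% (11 of 31) and with lists of equal length 40.0% (10 of 25). Of all DMSO regions at a score of 1000, 3666 were missing at both times, 4825 at 6 h only and 537 at 30 h only. The other 20783 were called at both times. In the window these counts were 11, 6 and 0, with 14 called at both times. With lists of equal length the share over all DMSO regions is not given. The 43.6 and 26.1% of all belong to the main setting. Counting regions within 500 bp as shared left 31 missing at 6 h and 22 at 30 h. The treated lists are shallower than DMSO, which limits what can be read from weak regions; the part of depth in the missing calls was not tested. No paired analysis was possible because replicates were pooled by the authors before peaks were listed; leaving out single replicates was not possible either.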
